A study of Homo sapiens with 6 samples.

Results

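The carbonic anhydrase genes CA2, CA5B, CA8, CA9, CA11, CA12, CA13 and CA14 were followed in RNA-sequencing libraries of U251 cells, an established human glioma line, 8 genes of the 60612 in the deposited table. They were listed by family membership, and the family was selected on the fold change of CA9, which had been seen to rise about 4-fold between the same groups. Differences between knockdown and control for the 8 genes are therefore descriptions, with no p-value, and where the text says if the fit called CA9, that call supports nothing. The controls were U251 cells labelled as normal control (3 libraries), and the other group was U251 cells labelled as TEAD3 knockdown (3 libraries). TEAD3 is a transcription factor at the output of the Hippo pathway. All cells were grown at 37 °C and 5% CO2 in medium with 10% serum, and the labels give no oxygen level. The knockdown was transient, and the labels mention a plasmid vector as well as an siRNA without saying what the controls received. They do not state that replicates were separate cultures, so p-values measure only how far these samples differ, which could be technical spread.

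Carbonic anhydrases are zinc enzymes that interconvert carbon dioxide and bicarbonate with release or uptake of a proton. CA9 and CA12 are membrane enzymes with the active site outside the cell, as is CA14, and CA9 is widely used as a marker of hypoxia in glioma because hypoxia-inducible factor (HIF) acts at an element next to its transcription start. CA2 and CA13 work in the cytosol and CA5B in mitochondria, while CA8 and CA11 are carbonic anhydrase-related proteins that lack a complete zinc site and do not catalyse the reaction.

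The sequences shown are the matches to the hypoxia response core closest to the starts of CA9, CA12 and CA5B, since CA9 is the member known for this element. The 250 bases before the RefSeq start (GRCh38.p14) were searched on both strands for the hypoxia response core in the form ACGTG, in its other form starting with a guanine (GCGTG), and for the TEAD factor core (GGAATG). RefSeq windows were found for 4 of the 8 genes. The RefSeq start is not the first base of the gene as annotated in GENCODE 29, whose ends are given with each gene further on, and lies inside that gene by 72 bases in CA9, 315 in CA12, 615 in CA14 and 49440 in CA5B, so the sites shown are inside the GENCODE genes as well. Each line gives 30 bases, 5′ to 3′ on the gene's strand, with the match in capitals, which in CA9 and CA12 reads as the reverse complement of the core.
CA9 (chr9:35673898-35673927, plus strand): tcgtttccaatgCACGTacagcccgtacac
CA12 (chr15:63382063-63382092, minus strand): gcggatctcaccCACGCctgccagcagctc
CA5B (chrX:15738216-15738245, plus strand): ctccattgagggGCGTGgccctggtatgtg
The CA9 match began 18 bases before the RefSeq start and was the only core in its window. The CA12 match, also the only one, began 234 bases before its RefSeq start. The CA5B window held 6 matches, all of the form that starts with a guanine, and the one shown began 42 bases before the RefSeq start. The CA14 window held none. Of all 35116 RefSeq windows of this length, 43.2% held at least 1 core in either form, 18.5% held the first form and 32.2% held the other. GGAATG was found in 11.9% of all windows and in none of these 4. A match is a description of the letters and not evidence of binding.

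Depth was similar in the 6 libraries, at 58344026 to 64808615 counts, so that 3 counts corresponded to 0.0457 to 0.0529 CPM (counts scaled to library size with TMM factors). TEAD3 was at 14.9, 20.3 and 21.0 CPM in the 3 controls, replicates 1 to 3, against 4.70, 8.35 and 6.07 CPM after knockdown. All knockdown libraries were below all controls (log2 fold change -1.55, SE 0.22, edgeR adjusted p = 0.0114). When single libraries were left out the call ended for control replicate 3 (edgeR adjusted p = 0.0541), for knockdown replicate 1 (0.0532) and for knockdown replicate 3 (0.0938), and it also ended with no filter on low counts (0.0639). Of the glial and neural markers, VIM, NES, SOX2 and CD44 lay between 114 and 4840 CPM over the 6 libraries, while the astrocyte markers GFAP and S100B were low, at 0.375 to 1.80 CPM and 0 to 0.686 CPM. GFAP, VIM and SOX2 lay lower in each knockdown library than in each control (log2 fold changes of -1.34, -0.29 and -0.27, edgeR adjusted p of 0.143, 0.2 and 0.247). NES, CD44 and S100B had overlapping groups, and 10.6% of all tested genes lay lower without overlap. Markers of blood (PTPRC, CD3E), endothelium (PECAM1) and neurons (RBFOX3) did not exceed 0.265 CPM, and EPCAM, of epithelium, lay between 0.625 and 1.28 CPM. Across 17723 genes tested, 116 were called at an edgeR adjusted p under 0.05 (0.655%), 80 higher and 36 lower. Correction for transcript length and GC content moved this to 274 higher and 311 lower.

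CA9 had the largest log2 fold change of the 8 carbonic anhydrase genes, which is the value that chose the family. Per kilobase of transcript it overtook CA13 to become the most abundant catalytically active member. CA9 (ENSG00000107159) is a plus-strand gene of chromosome 9, at 35673856 to 35681159 in GRCh38. It was at 1.83, 4.60 and 2.61 CPM in control replicates 1 to 3, and the corresponding knockdown levels were 13.3, 9.32 and 17.2 CPM. Every knockdown library lay above every control, and the lowest knockdown library was replicate 2. In bulk libraries, more cells with the transcript and more transcript per cell cannot be told apart. The underlying counts were 120, 261 and 157 in the controls and 826, 597 and 1123 in the knockdown. The mean was 3.01 ± 1.43 CPM in controls against 13.3 ± 3.93 CPM after knockdown (SD, n = 3 each), a fold of 4.41 (log2 fold change 2.14, SE 0.33). CA9 was the 1 gene of the 8 called by edgeR, where 0.655% of all genes were called, and nothing is read from this because the contrast chose the gene. The call ended without control replicate 3 (log2 fold change 2.05), knockdown replicate 1 (2.14) and knockdown replicate 3 (1.91), although the log2 fold change stayed between 1.88 and 2.58 whichever library was left out.

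**Figure D1:**
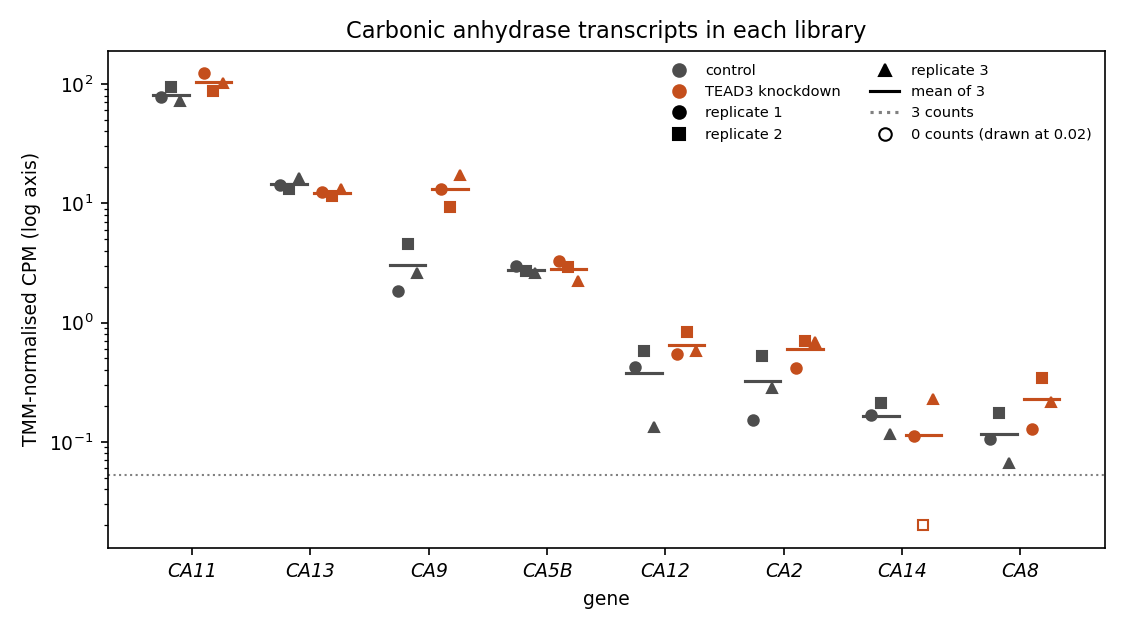
Levels of the 8 carbonic anhydrase genes in each library, as TMM-normalised CPM on a log axis, with symbols for replicates, a line for the mean of 3 and a dotted line at 3 counts. CA9 is at 1.83 to 4.60 CPM in controls and 9.32 to 17.2 CPM after knockdown, and CA14 has 0 counts in knockdown replicate 2.

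The CA9 locus and its library pattern bear on how its counts are read. Exons of ARHGEF39, on the opposite strand, overlap 643 of the 1670 exonic bases of CA9 (38.5%), and the sources used here do not say whether counting used the strand. ARHGEF39 was at 16.8, 20.3 and 15.4 CPM in controls, against 14.3, 21.4 and 14.4 CPM after knockdown. Its groups overlapped (log2 fold change -0.07, edgeR adjusted p = 0.907), and its highest library, knockdown replicate 2, was the lowest knockdown library for CA9. The ratio of CA9 to ARHGEF39 was 0.109, 0.226 and 0.17 in controls and 0.928, 0.436 and 1.19 in the knockdown. This ratio restates the CA9 values that chose the family. Reads in the shared bases were not counted apart, so their part in the CA9 difference was not tested.

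RN7SL1, the RNA component of the signal recognition particle, has no poly(A) tail and so reports on how RNA was selected. It was at 14.7, 34.5 and 17.6 CPM in controls, against 60.8, 14.4 and 79.8 CPM after knockdown. Within each group the libraries stood in the same order for RN7SL1 and CA9. RN7SL2, RN7SK, RPPH1 and RMRP were likewise highest in knockdown replicate 3 and, among controls, in replicate 2, and none of the 5 was called (edgeR adjusted p from 0.264 to 0.582, with 3 at an unadjusted p under 0.05). In knockdown replicate 2, RN7SL1 was below every control, by 14.4 against 14.7 CPM at the closest. RN7SL2, RN7SK, RPPH1 and RMRP lay within the range of their controls in that library. CA9 was at 9.32 CPM there, above every control. The part of these RNAs in the CA9 difference was not tested further.

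**Figure D2:**
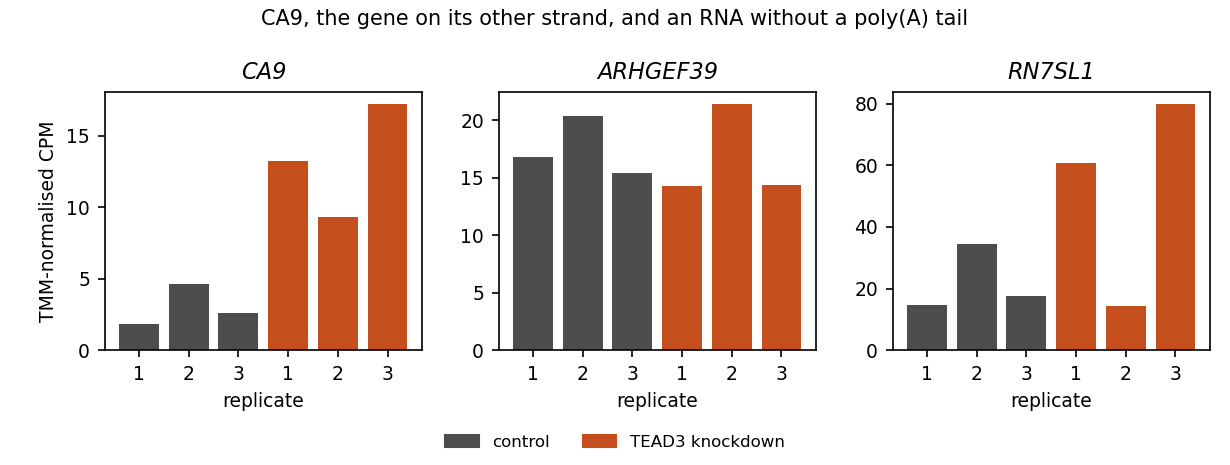
Bars give TMM-normalised CPM of CA9, of ARHGEF39 on the opposite strand and of RN7SL1 in control (grey) and knockdown (orange) replicates 1 to 3, each panel with its own axis from 0. CA9 is higher in all 3 knockdown libraries, ARHGEF39 overlaps between groups, and RN7SL1 is at 14.4 CPM in knockdown replicate 2 against 60.8 and 79.8 CPM in replicates 1 and 3.

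The other membrane members were close to the limit of detection. CA12 (ENSG00000074410, chromosome 15, 63321378 to 63382161, minus strand) was at 0.427, 0.581 and 0.133 CPM in controls, against 0.545, 0.827 and 0.581 CPM after knockdown. The groups overlapped, with control replicate 3, at 8 counts, the lowest library. The log2 fold change was 0.77 (SE 0.59), and 0.37 without control replicate 3 and 1.21 without control replicate 2. CA14 (ENSG00000118298, chromosome 1, 150257159 to 150265078, plus strand) had 11, 12 and 7 counts in controls and 7, 0 and 15 in the knockdown. Its 0 in knockdown replicate 2 allows up to 0.0468 CPM (3 counts, counting error only). No direction can be given for CA14, since its log2 fold change of -0.52 (SE 1.09) became 0.05 without that library and -1.53 without knockdown replicate 3.

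Of the cytosolic enzymes, CA13 was well expressed and CA2 was not. CA13 (ENSG00000185015, chromosome 8, 85220587 to 85284073, plus strand) was at 14.2, 13.2 and 16.3 CPM in controls, against 12.4, 11.4 and 13.1 CPM after knockdown. Each knockdown library lay below each control, by a margin of 13.05 against 13.18 CPM at the closest, and 21.6% of all tested genes had groups that did not overlap. The log2 fold change was -0.25 (SE 0.14) and stayed below 0 under every alternative run, from -0.32 to -0.16. CA2 (ENSG00000104267, chromosome 8, 85463852 to 85481493, plus strand), the most studied member in normal tissues, had 10, 30 and 17 counts in controls and 26, 45 and 45 in the knockdown. The groups overlapped through control replicate 2 and knockdown replicate 1, at 0.529 and 0.417 CPM, and the log2 fold change of 0.91 (SE 0.59) moved to 0.57 without control replicate 1 and to 1.46 without control replicate 2.

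The mitochondrial enzyme CA5B did not separate the groups. CA5B (ENSG00000169239, chromosome X, 15688830 to 15788409, plus strand) was at 2.96, 2.73 and 2.60 CPM in controls, against 3.26, 2.93 and 2.25 CPM after knockdown (log2 fold change 0.03, SE 0.23). The knockdown libraries held both its highest and its lowest value. Its neighbouring pseudogene CA5BP1 was more abundant, at 4.41 to 6.62 CPM over the 6 libraries, and how reads were divided between the 2 is uncertain. INE2, whose exons cover 22.0% of the exonic bases of CA5B on the opposite strand, did not exceed 0.183 CPM.

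The related protein CA11, which does not catalyse the reaction, was the most abundant member by far. CA11 (ENSG00000063180, chromosome 19, 48637942 to 48646312, minus strand) was at 77.7, 94.1 and 71.7 CPM in controls, against 122.7, 87.6 and 101.4 CPM after knockdown. The groups overlapped because knockdown replicate 2 lay below control replicate 2. The mean was 81.2 ± 11.6 CPM in controls against 103.9 ± 17.7 CPM after knockdown (SD, n = 3 each). The log2 fold change was 0.36 (SE 0.14), and it was 0.22 without knockdown replicate 1, 0.47 without control replicate 2 and 0.27 after the length and GC correction. CA8 (ENSG00000178538, chromosome 8, 60187347 to 60281412, minus strand), which binds an inositol trisphosphate receptor in neurons, had 7, 10 and 4 counts in controls and 8, 22 and 14 in the knockdown (log2 fold change 0.97, SE 0.83), with groups that overlapped. Its log2 fold change was 0.56 without knockdown replicate 2 and 1.38 without control replicate 2.

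**Figure D3:**
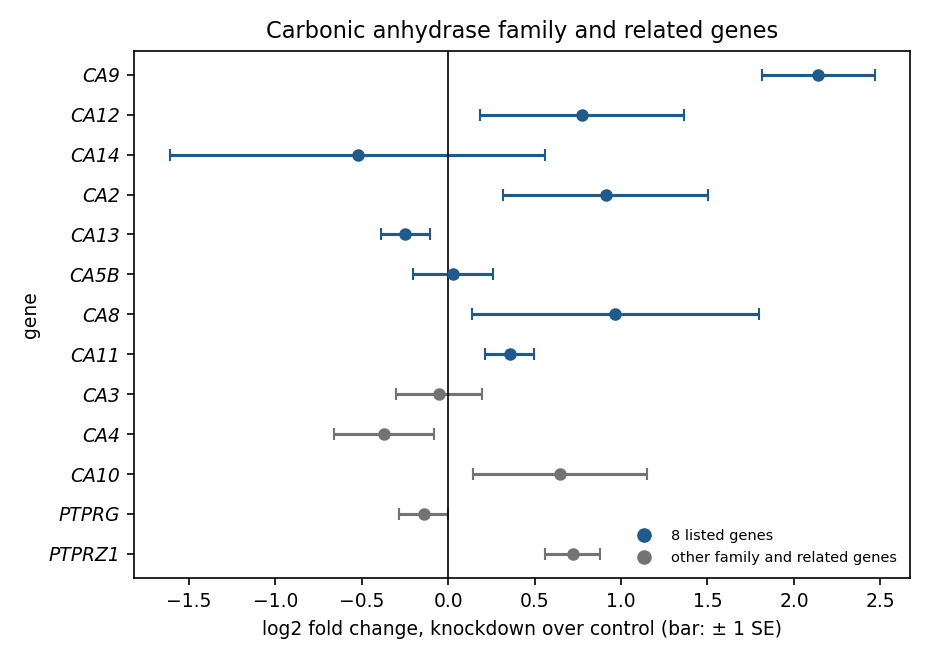
Points give the log2 fold change of knockdown over control and bars ± 1 SE of the fit, for the 8 listed genes (blue) and for the other family genes and receptors with a related domain that passed the filter on low counts (grey). CA9 stands at 2.14, CA13 at -0.25 and CA11 at 0.36, and the bars of CA2, CA8, CA12 and CA14 are wide because these genes have few counts.

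To compare levels between genes, CPM was divided by the length of each gene's longest annotated transcript in kilobases. In controls the order of levels was CA11 at 44.0 ± 6.30, CA13 at 3.82 ± 0.415, CA9 at 1.86 ± 0.882, CA5B at 0.404 ± 0.0266 and CA2 at 0.187 ± 0.111 CPM per kilobase (SD, n = 3 each). CA14, CA12 and CA8 followed at 0.0687, 0.0593 and 0.0306 CPM per kilobase, and neighbours among these 3 overlapped between libraries. In the knockdown CA9 stood above CA13, at 8.19 ± 2.43 against 3.22 ± 0.214 CPM per kilobase, with no overlap between their libraries. CA5B and CA2 overlapped there, as did CA12, CA8 and CA14 from neighbour to neighbour. With the union of exons as the length, CA13 and CA9 overlapped in controls, as did CA2 and CA12. CA12 and CA14 overlapped there as well, with the mean of CA12 above that of CA14.

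CA11 made up 85.7% to 88.4% of the summed level per kilobase of the 8 genes in controls and 78.6% to 84.4% in the knockdown. The share of CA9 was 2.37%, 4.88% and 3.56% in controls and 10.4%, 10.0% and 15.2% in the knockdown. Among the 6 catalytically active members alone, CA9 held 20.5%, 39.6% and 24.8% of the level per kilobase in controls and 66.7%, 59.2% and 71.0% in the knockdown. The summed level of these 6 was 6.40 ± 0.837 CPM per kilobase in controls and 12.3 ± 2.62 in the knockdown (SD, n = 3 each). These shares and sums leave out CA3 and CA4, family genes outside the list that were detected. Of the 3 listed members facing the outside of the cell, CA9 supplied 89.2% to 95.9% in controls and 97.8% to 98.4% in the knockdown. With CA4, a membrane-anchored enzyme outside the list, counted among them, the CA9 share was 44.8% to 53.2% in controls and 78.5% to 87.3% in the knockdown. These shares restate the CA9 difference that chose the family and add no support to it.

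**Figure D4:**
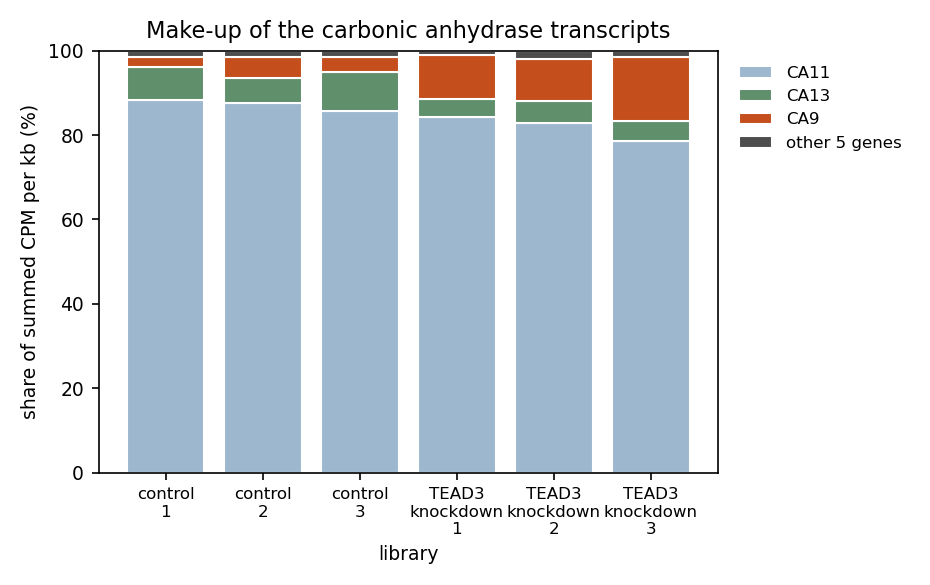
Stacked bars give the share of each gene in the summed CPM per kilobase of the 8 genes, one bar per library from 0 to 100%. CA11 fills 78.6% to 88.4% of every bar, and the CA9 segment grows from 2.37% to 4.88% in controls to 10.0% to 15.2% in the knockdown.

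Family genes outside the list ranged from no counts in CA1 and CA5A to a control mean of 2.05 CPM in CA4. The tissue-restricted isoenzyme genes CA1 and CA5A had 0 counts in all 6 libraries, which allows up to 0.0529 CPM. CA6 and CA7 did not pass the filter on low counts. CA3, a muscle isoenzyme, was at 1.87 ± 0.107 CPM in controls and 1.80 ± 0.175 CPM after knockdown, and CA4 at 2.05 ± 0.616 and 1.58 ± 0.0759 CPM (SD, n = 3 each), with overlapping groups and edgeR adjusted p of 0.959 and 0.592. CA10, a related protein, was at 0.365 ± 0.0724 and 0.573 ± 0.0874 CPM, with every knockdown library above every control (log2 fold change 0.65, SE 0.50, edgeR adjusted p = 0.586). Of all tested genes, 11% lay higher without overlap. PTPRZ1 and PTPRG, receptor phosphatases with a carbonic anhydrase-like domain outside the cell, are not enzymes of this family. PTPRZ1 was at 7.53, 6.84 and 8.92 CPM in controls, against 12.2, 12.6 and 13.6 CPM after knockdown. Its groups did not overlap, and it was not called (log2 fold change 0.72, SE 0.16, edgeR adjusted p = 0.0719), but it was called by DESeq2 (adjusted p = 0.00164), using robust dispersions (0.0441) and after the length and GC correction (0.0161). PTPRG had overlapping groups (-0.14, edgeR adjusted p = 0.689).

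Other genes known to be induced by hypoxia were not called by edgeR. Of 31 tested, none was called in either direction, against 80 higher (0.451%) and 36 lower (0.203%) of all genes, while an unadjusted p below 0.05 was reached by 7 higher and 2 lower, against 8.15% and 7.43% of all genes. DESeq2 called 2 higher, ADM and NDRG1, and 0 lower. Over all genes it called 488 higher and 384 lower, together 6.11% of the 14274 to which it gave an adjusted p. The list median was 0.11 on the log2 scale, where that of all genes was -0.0012. Knockdown libraries lay above every control for 10 of the 31 and below every control for none, against 11% and 10.6% of all genes. ADM, which encodes the vasodilator peptide adrenomedullin, went from 11.5, 14.0 and 13.9 CPM to 21.1, 18.6 and 25.3 CPM (a log2 fold change of 0.72 ± 0.15 SE, edgeR adjusted p = 0.0636). ADM was called when control replicate 2 was left out (edgeR adjusted p = 0.0428), under a stricter count filter (0.044), using robust dispersions (0.0338) and after the length and GC correction (0.0313). NDRG1, a stress-response gene, and ALDOA, of glycolysis, had log2 fold changes of 0.39 and 0.36 (edgeR adjusted p of 0.127 and 0.217), and NDRG1 was called after the length and GC correction (0.0141).

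ANGPTL4, which encodes a secreted inhibitor of lipoprotein lipase and was singled out after its values were seen, was near CA9 in size of difference at a far lower level. It had 7, 12 and 6 counts in controls and 35, 54 and 41 in the knockdown (log2 fold change 2.27, SE 0.60, edgeR adjusted p = 0.116). VEGFA and SLC2A1, the vascular growth factor and glucose transporter genes, were also named after their values were seen. They had log2 fold changes of 0.12 and -0.26 (edgeR adjusted p of 0.649 and 0.304) and overlapping groups. The value of SLC2A1 was the lowest of the list.

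**Figure D5:**
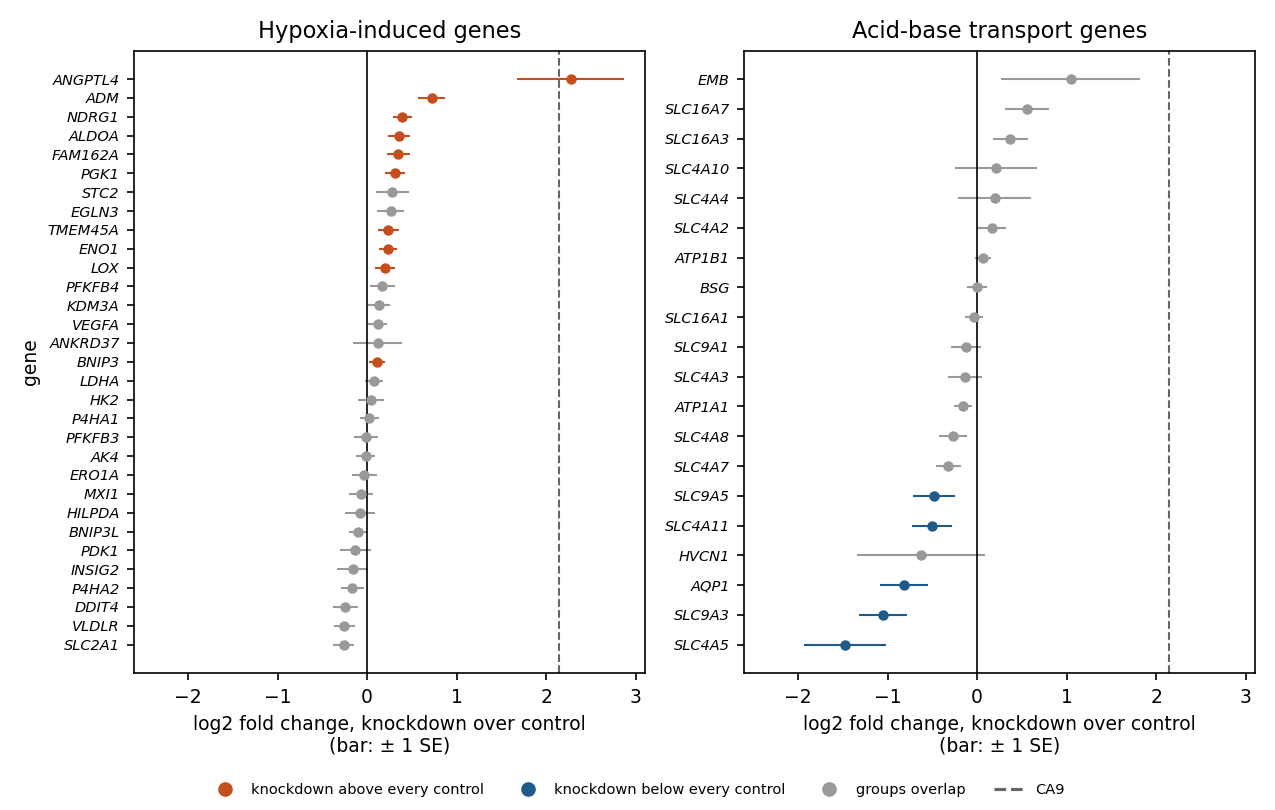
Log2 fold changes of knockdown over control with ± 1 SE for the 31 hypoxia-induced genes (left) and the 20 tested acid-base transport genes (right), coloured by whether the 3 knockdown libraries lie above, below or among the controls, with a dashed line at the CA9 value of 2.14. Apart from ANGPTL4 at 2.27, the hypoxia-induced genes lie between -0.26 and 0.72.

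The HIF subunits and the genes that control their stability or activity were not called by edgeR either. Of 8 tested, none was called, where 0.655% of all genes were. At an unadjusted p below 0.05 they counted 1 higher and 2 lower, beside 8.15% and 7.43% of all genes. DESeq2, which called 6.11% of the genes to which it gave an adjusted p, called EPAS1, higher, and HIF1AN, lower. The list median was 0.0023. Knockdown libraries lay above every control for 1 of these genes and below every control for 1, beside 11% and 10.6% of all genes. HIF1A, the HIF subunit that drives CA9 in hypoxia, was at 273, 211 and 308 CPM in controls, against 302, 302 and 294 CPM after knockdown, with overlapping groups (log2 fold change 0.18, edgeR adjusted p = 0.551). EPAS1, which encodes the related subunit HIF-2 alpha, was at 11.0, 10.1 and 10.5 CPM in controls, against 19.1, 14.5 and 20.9 CPM after knockdown. Each knockdown library lay above each control (0.79, SE 0.16, edgeR adjusted p = 0.0551). EPAS1 was called without knockdown replicate 2 (0.93, edgeR adjusted p = 0.0397), under the stricter count filter (0.0384), using robust dispersions (0.027) and after the length and GC correction (0.018). HIF1AN, an inhibitor of HIF activity, was at 104 ± 8.42 and 78.3 ± 4.02 CPM (SD, n = 3 each), with each knockdown library below each control (-0.41, edgeR adjusted p = 0.0995). EGLN1, the prolyl hydroxylase that marks HIF for destruction, was not called (-0.32, edgeR adjusted p = 0.31) except without control replicate 2 (-0.46, 0.0428).

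Partners of carbonic anhydrases in moving bicarbonate, protons and lactate were also not called. Of 20 tested, none was called by edgeR (0.655% of all genes), and an unadjusted p below 0.05 was reached by 1 higher and 5 lower, beside 8.15% and 7.43% of all genes. The single call by DESeq2 was SLC9A3, lower, beside 6.11% of the genes to which it gave an adjusted p. The list median was -0.13, and knockdown libraries lay below every control for 5 and above for none, beside 10.6% and 11% of all genes. SLC9A3, a sodium-proton exchanger gene, was at 20.1, 13.5 and 11.0 CPM in controls, against 4.84, 7.23 and 9.49 CPM after knockdown (log2 fold change -1.05, SE 0.27, edgeR adjusted p = 0.106, and 0.0018 by DESeq2). SLC16A3, the lactate exporter MCT4, was at 103 ± 33.4 and 133 ± 21.8 CPM (0.37, edgeR adjusted p = 0.405). SLC4A7, a sodium-bicarbonate cotransporter gene, was at 75.6 ± 15.6 and 60.5 ± 1.40 CPM (SD, n = 3 each; -0.32, edgeR adjusted p = 0.31). Both were called without control replicate 2, SLC16A3 at 0.66 (edgeR adjusted p = 0.0441) and SLC4A7 at -0.48 (0.0257). BSG, the chaperone of lactate transporters, differed little in mean, at 1054 ± 163 and 1052 ± 9.55 CPM (log2 fold change -0.0026, 95% interval of the fold 0.839 to 1.19).

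The genes whose levels were most like those of CA9 over the 6 libraries, among 10285 with a symbol and an average log2 CPM of at least 3, were ISCU (iron-sulfur cluster assembly), CC2D1B, C3 (complement), RELB (an NF-kB subunit) and TNFRSF12A (the TWEAK receptor). Their Pearson correlations with CA9 on the log2 CPM scale were 0.996, 0.994, 0.994, 0.992 and 0.991. The 6 points share the group difference by which CA9 was chosen. RELB was at 15.3, 23.8 and 17.7 CPM in controls, against 33.5, 31.8 and 44.0 CPM after knockdown, with control replicate 2 and knockdown replicate 3 highest in their groups as for CA9. ISCU had the highest correlation with a much smaller difference, from 46.1 ± 1.84 to 53.6 ± 1.23 CPM (SD, n = 3 each). For CA12, at 8 to 53 counts, the most similar were MTERF4, STAG3L2, METTL17, PEX11A and STX8, with correlations from 0.949 to 0.989, all with control replicate 3 as the lowest library.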

How the data were processed

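The authors deposited whole-number counts per Ensembl gene for 6 libraries, not scaled for library size. Per the labels' protocols, RNA was selected on oligo(dT) beads and made into strand-marked paired-end libraries. The submitters' processing notes list StringTie 1.3.4d, HISAT2 2.0.4, cutadapt 1.9, edgeR and DESeq2, with build GRCh38; the counting tool and its strand setting were not given in the sources used here. Symbols came from a gene name table and GENCODE 29 (42207 of 60612 identifiers), which also gave coordinates, lengths and overlaps; promoter windows came from RefSeq.

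Counts were fitted in R 4.3.3 with edgeR 4.0.16 (quasi-likelihood F test, two-sided, TMM, filterByExpr with a minimum count of 10, group as the only term, Benjamini-Hochberg over 17723 genes); the 8 genes all passed the filter. DESeq2 1.42.0, limma-voom (limma 3.58.1), other scalings and filters, a replicate block, a loess fit of each library on transcript length and GC content, and leaving out each library were alternatives. The fit was tested on simulated data. Members and lists were chosen with earlier results of these data known. Besides TEAD3, family genes and overlapping genes, the text names from each list called genes and the 3 largest fold changes (average log2 CPM from 3 upward), and the 5 genes most like CA9 and CA12. Other genes were chosen after their values were seen.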

Additional observations from a re-analysis of the deposited data

How the results depend on the processing

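The log2 fold change of CA9 lay between 1.88 and 2.58 under all 16 alternatives, which describes the value that chose the family. The number of the 8 genes called, 1 by edgeR, was 0 with no filter on low counts and 0 with the replicate block, and ranged from 0 to 1 when a library was left out. The number called among all genes, 116, was 31 with no filter, 872 by DESeq2, 197 using robust dispersions, 63 with the replicate block and 585 after the length and GC correction, and ranged from 20 (without knockdown replicate 3) to 589 (without control replicate 2) when a library was left out. Of the hypoxia-induced genes, 1 was called with the stricter filter, 2 by DESeq2, 1 using robust dispersions, 2 after the length and GC correction and 0 to 1 with a library left out. Of the HIF pathway regulators the numbers were 1, 2, 1, 1 and 0 to 1. Of the acid-base transport genes, 1 was called by DESeq2 and 0 to 2 with a library left out. The cause was not tested; with no filter 29520 genes were tested. Replicate numbers are shared between the groups only as numbers: same-numbered libraries deviated with correlations of -0.101, -0.208 and -0.146, and no library correlated best with its own number. CA2, CA8, CA12 and CA14 lie at 0 to 53 counts per library, so differences in them were not measurable with useful precision at this depth.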

Other observations

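CA7, a cytosolic isoenzyme gene of the nervous system, had 0, 10 and 19 counts in control replicates 1 to 3 and 0 in every knockdown library. It did not pass the filter on low counts, so no test was made. The summed level per kilobase of the 8 carbonic anhydrase genes was 47.7, 58.3 and 45.4 CPM per kilobase in controls and 78.9, 57.3 and 70.0 in the knockdown, so knockdown replicate 2 lay below control replicate 2. Among the knockdown libraries CA9 was highest in replicate 3, at 17.2 CPM, and TEAD3 was lowest in replicate 1, at 4.70 CPM. Replicate 2 had the lowest CA9, at 9.32 CPM, and the highest TEAD3, at 8.35 CPM. Any relation between these genes was not tested.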
